A study of Mus musculus with 2 samples.

Results

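Integrins and laminins were followed in 2 rhabdoid tumors of mice as a set of 37 genes, made up of 25 integrin subunits, 10 laminin chains and 2 nidogens. The genes were listed by family membership, a rule that uses no measured value, although the family itself was picked with earlier results of these data known. They were read in 3 classes: 19 matrix receptors, 6 leukocyte integrins, and 12 laminin chains and nidogens. All 37 were found among the 55416 genes of the count table, and all 37 were among the 21977 genes that had 10 or more counts over both libraries and were therefore compared.

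The tumors came from Dppa3-cre::Smarcb1 fl/+ mice on a C57BL/6 background, which carried 1 floxed Smarcb1 allele together with Cre recombinase knocked in at Dppa3. The series text describes a cross of a Smarcb1 fl/fl strain with the Cre line, and the study's methods name heterozygous fl/+ offspring as the tumor-bearing mice. Dppa3 is active in primordial germ cells, so every cell descended from a recombined germ cell could carry the deletion. The labels place 1 tumor intracranially at the trigeminal nerve and 1 extracranially in the facial, maxillar region, and put both in the MYC class. The ages of the mice were not given in the sources used here. Genotype and class were thus shared, and only the location label separated the 2 libraries. No normal tissue and no tumor of another genotype was among the samples used here.

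Integrins are cell surface receptors built from an α and a β subunit, and the pairing decides which ligand is bound: collagens, laminins, proteins with an arginine-glycine-aspartate (RGD) motif, or counter-receptors on other cells. Laminins are secreted trimers of an α, a β and a γ chain that polymerize into the sheet of a basement membrane, and nidogens tie this sheet to the type IV collagen network. Inside the cell, talins and kindlins bind the β tails and link the receptors to actin, whereas the epithelial Itga6-Itgb4 pair anchors keratin filaments at hemidesmosomes.

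The libraries held 34545846 and 26915696 counts for the tumors labelled intracranial and extracranial, respectively, and 3 counts, the floor used for ratios, corresponded to 0.0863 and 0.112 CPM, the unit of counts over the scaled library size. Members held 103499 counts (0.300%) and 86905 counts (0.323%). Smarcb1, the targeted gene, had 365 counts in the intracranial library, or 10.5 CPM (95% interval 9.45 to 11.6), and 530 counts in the extracranial library, or 19.8 CPM (18.2 to 21.6). Both tumors carried the same floxed allele and a count over the whole gene does not separate floxed from other transcripts, so these values do not check the labels. With 1 library per location there was no replicate check, all intervals cover counting error only, and a difference is between these libraries rather than between locations. In bulk tissue, fewer cells of a type and less RNA per cell cannot be told apart.

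Ratios were taken as extracranial over intracranial, and a call required both ends of the 95% interval to lie past 4-fold on the same side. Of the 37 members, 1 was called higher in the extracranial library, the RGD-binding subunit Itgb5, against 1.78% of all genes compared. A further 5 were called lower, namely Itga3, Itgb4, Itgb6, Lama3 and Lamb3, against 5.41% of all genes compared. At a looser limit of 2-fold, 5 members were higher (5.86% of all genes) and 7 were lower (9.77% of all genes), which left 25 within or across that limit. The median log2 ratio was -0.27 over the members and -0.04 over all genes compared. By class, the median was -0.72 over the matrix receptors, -0.10 over the leukocyte integrins and -0.25 over the laminin chains and nidogens. Intervals lay wholly above 0 for 13 members and wholly below 0 for 17, and they spanned 0 for 7. The plot of member ratios shows that most members lay inside the 4-fold limits, with the lower calls farther from 0 than the single higher call.

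**Figure D1:**
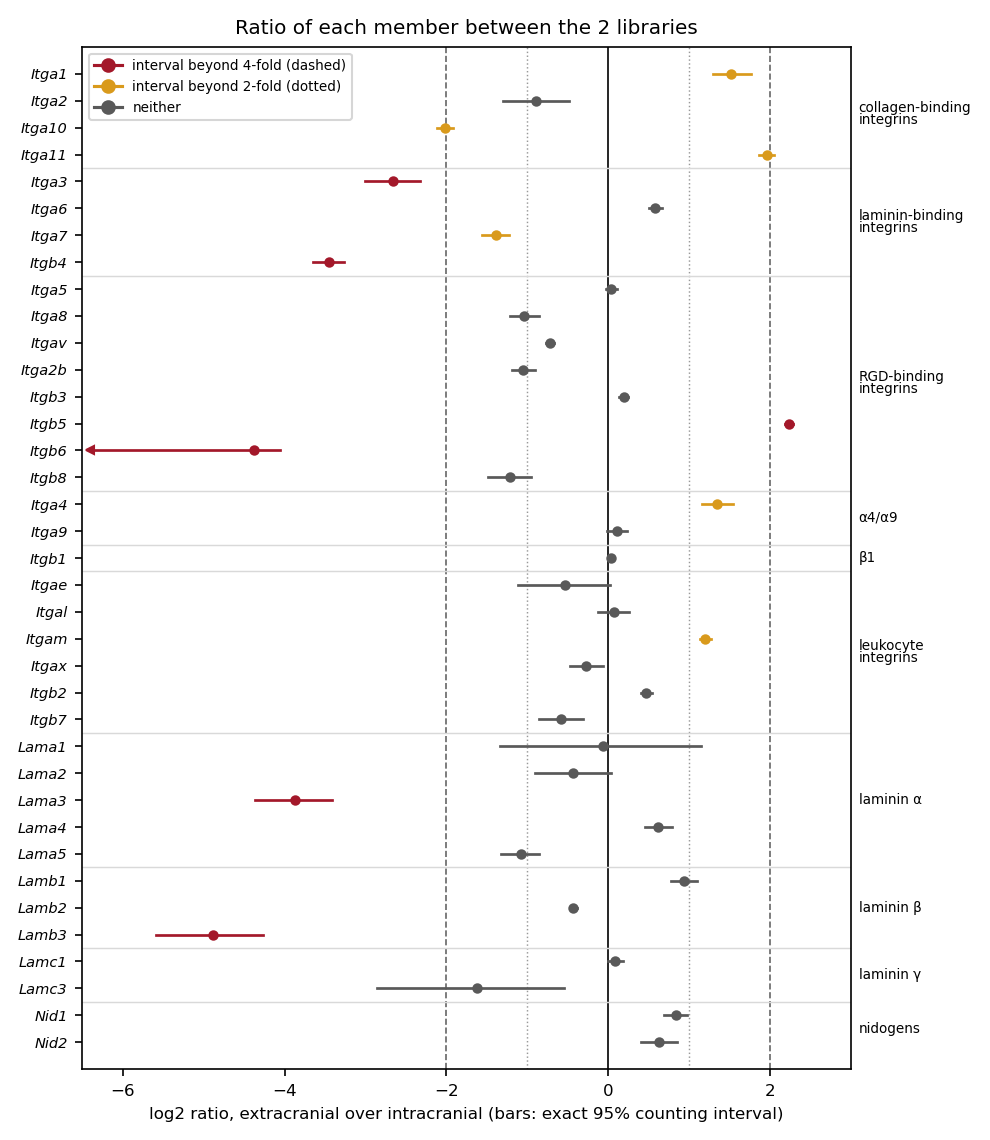
Log2 ratio of CPM, extracranial over intracranial, for each of the 37 members, with the 95% counting interval as a bar and the 2-fold and 4-fold limits as dotted and dashed lines (n = 1 library per location). Itgb5 lies beyond 4-fold on the higher side at 2.23, whereas Lamb3, Itgb6, Lama3, Itgb4 and Itga3 lie beyond it on the lower side, from -4.89 to -2.66; the arrow of Itgb6 marks an interval with no lower end.

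Promoter sequences are shown for 5 members that differed between the libraries or stand for a role, to set the starting sequence of the genes beside their values: Itgb5, Lamb3, the collagen receptors Itga10 and Itga11, and the myeloid subunit Itgam. The sequences are the 250 bases before the annotated start in RefSeq (build GRCm38.p6, all on the plus strand), and 24 of the 37 members had such an entry, with 27 start sites. Capitals mark matches on either strand to GAGGAA (the core of PU.1 sites), GGGCGG (the core of Sp1 sites) or TGANTCA (the AP-1 core, N being any base). These windows are chr16:33829415-33829664 (Itgb5), chr1:193301744-193301993 (Lamb3), chr3:96645334-96645583 (Itga10), chr9:62677605-62677854 (Itga11) and chr7:128062390-128062639 (Itgam).
Itgb5: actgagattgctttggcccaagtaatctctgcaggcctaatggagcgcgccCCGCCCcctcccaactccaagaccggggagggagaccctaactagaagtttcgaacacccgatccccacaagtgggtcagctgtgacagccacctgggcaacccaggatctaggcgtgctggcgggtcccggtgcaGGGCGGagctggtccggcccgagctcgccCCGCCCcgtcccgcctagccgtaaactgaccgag
Lamb3: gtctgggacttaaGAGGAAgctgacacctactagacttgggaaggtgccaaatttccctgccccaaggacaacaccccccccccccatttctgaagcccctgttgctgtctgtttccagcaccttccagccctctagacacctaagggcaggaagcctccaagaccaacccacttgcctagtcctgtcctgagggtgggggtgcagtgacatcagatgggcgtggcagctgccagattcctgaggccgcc
Itga10: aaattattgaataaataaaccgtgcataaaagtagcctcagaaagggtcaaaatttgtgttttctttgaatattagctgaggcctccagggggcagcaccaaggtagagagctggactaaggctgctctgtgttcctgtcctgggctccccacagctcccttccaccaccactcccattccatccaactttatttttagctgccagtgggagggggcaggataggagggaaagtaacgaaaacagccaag
Itga11: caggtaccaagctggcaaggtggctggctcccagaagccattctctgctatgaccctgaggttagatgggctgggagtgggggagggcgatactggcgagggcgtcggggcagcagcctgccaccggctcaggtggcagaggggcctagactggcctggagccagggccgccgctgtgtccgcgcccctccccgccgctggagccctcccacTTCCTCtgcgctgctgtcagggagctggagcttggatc
Itgam: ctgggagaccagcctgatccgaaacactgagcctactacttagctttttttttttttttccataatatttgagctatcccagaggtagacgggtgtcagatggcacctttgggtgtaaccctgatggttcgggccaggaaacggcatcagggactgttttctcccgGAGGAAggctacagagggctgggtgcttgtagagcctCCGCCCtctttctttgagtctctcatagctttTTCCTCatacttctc

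The Itgb5 window held 3 matches to the Sp1 core, which started 199, 63 and 34 bases before the annotated start. Itgam, whose product is made in myeloid cells, held 2 matches to the PU.1 core, 84 and 15 bases before the start, and 1 to the Sp1 core at 47 bases. The Lamb3 window shown had 1 PU.1 match at 237 bases, whereas the window of its other annotated start, chr1:193301993-193302242, had none of the 3 motifs. The Itga11 window had 1 PU.1 match at 38 bases, and the Itga10 window had no match to any of the 3 motifs. Across the members, 14 of 27 windows (51.9%) held the PU.1 core, 10 (37.0%) the Sp1 core and 1 (3.70%), that of Itgax, the AP-1 core. Among 32817 windows of all genes, the shares were 23.3%, 32.7% and 6.75%. A match is a run of letters and was not tested as a binding site.

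Levels between genes were compared as CPM per kilobase of exon (CPM/kb). Itgb1, the β subunit shared by most collagen, laminin and fibronectin receptors, was the highest member in both libraries, with 185 CPM/kb in the intracranial and 189 CPM/kb in the extracranial tumor. It had 26182 and 20603 counts, and its ratio was near 1, at a log2 of 0.03 (95% interval 0.00 to 0.06). The order behind it differed. In the intracranial library Lamb2 (82.7 CPM/kb), Itgb3 (36.9), Itgb5 (35.6) and Itgav (31.1) followed, and the intervals of Itgb3 and Itgb5 overlapped. In the extracranial library Itgb5 came next with 167 CPM/kb, ahead of Lamb2 (61.6), Itgb3 (42.1), Itgb2 (40.6) and Itgam (38.4), where the interval of Itgb2 overlapped those of both Itgb3 and Itgam. Of the 36 neighbouring pairs in each order, 19 in the intracranial and 20 in the extracranial library overlapped. The order also depends on the length used. With exon length free of other genes, Itgam shifted most, by 6 places in the intracranial and 3 in the extracranial library. The lowest members were Lama1 in the intracranial library, with 0.0446 CPM/kb, and Itgb6 in the extracranial library, with 0 counts. The plot of member levels places both libraries side by side.

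**Figure D2:**
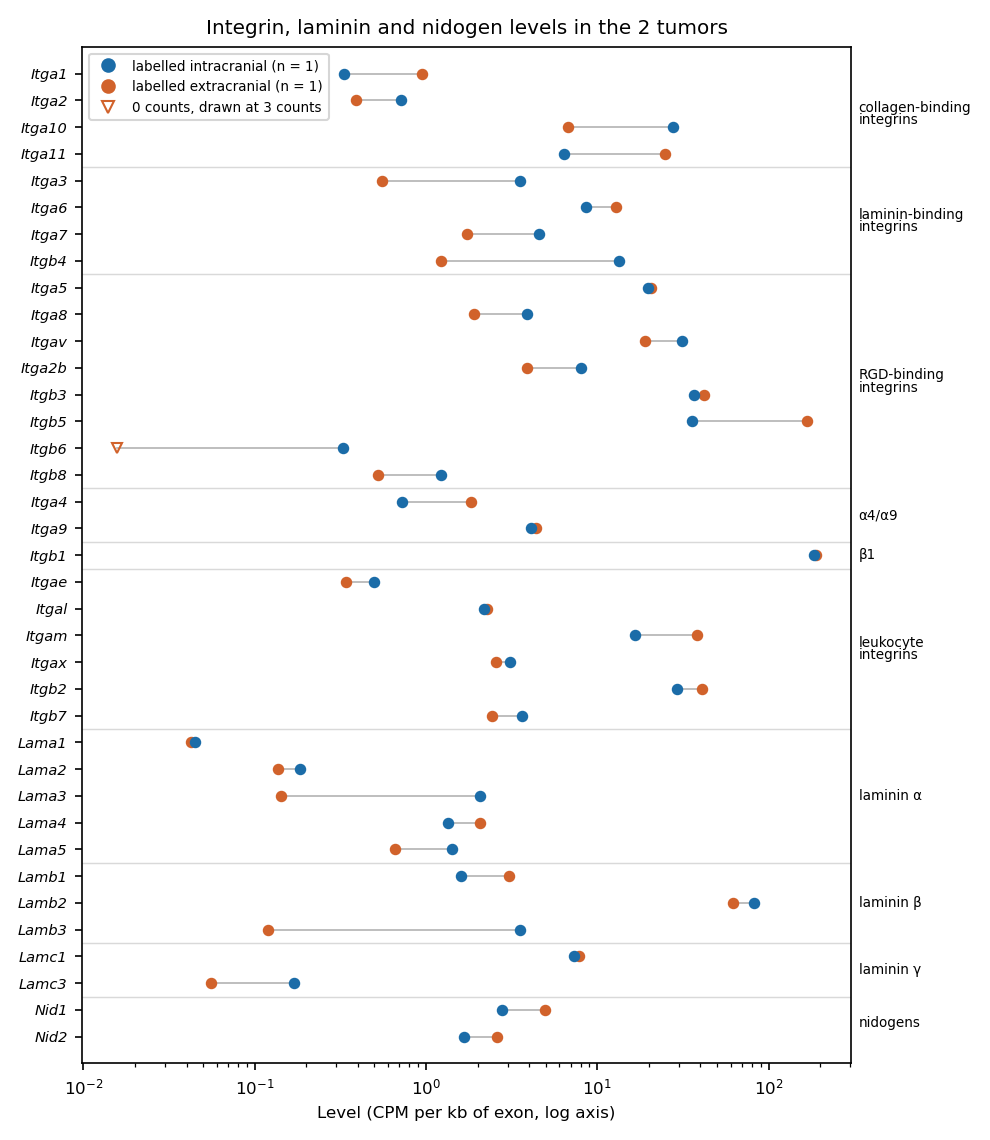
Level of each member in CPM per kilobase of exon (log axis), with 1 point for the library labelled intracranial and 1 for that labelled extracranial, grouped by role; an open triangle marks 0 counts drawn at the level of 3 counts. Itgb1 is highest in both libraries (185 and 189), and the gaps of Lamb3, Itgb6, Lama3 and Itgb4 are wide.

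Among the α subunits, which pair mostly with Itgb1, the 4 collagen receptors went in opposite directions. Itga10, the collagen receptor of cartilage, had 4953 counts in the intracranial and 940 in the extracranial library, whereas Itga11, the fibrillar collagen receptor of mesenchymal cells, had 1133 and 3386. Their log2 ratios were -2.02 (-2.12 to -1.92) and 1.96 (1.86 to 2.05), both just short of a call. The interval of Itga10 reached inside 4-fold, and the ratio of Itga11 itself lay inside it, at 3.88-fold. The 2 subunits accordingly exchanged places: the level of Itga11 relative to Itga10, per kilobase, was 0.231 in the intracranial and 3.64 in the extracranial tumor. The summed level of the 4 collagen receptors nevertheless stayed close, at 34.9 and 32.8 CPM/kb. Itga1, which prefers type IV collagen, had 213 and 472 counts and was 2.88-fold higher in the extracranial library (log2 1.52, 1.29 to 1.77). Itga2, the other classical collagen receptor, had 178 and 74 counts (log2 -0.89, -1.30 to -0.49). Both were rare per kilobase, at or below 0.948 CPM/kb in either library. For Itga10, 33.5% of exon bases overlapped Gm42957, a gene with 21 and 1 counts. With exon length free of other genes, Itga10 reached an upper value of 41.4 CPM/kb in the intracranial library. The closeness of the summed collagen receptor levels thus depends on the length.

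The laminin-binding integrins were mostly lower in the extracranial library, with a median log2 ratio of -2.02 over the 4 subunits. Itgb4, which joins Itga6 at hemidesmosomes of epithelia, had 3252 counts in the intracranial and 229 in the extracranial library and was 10.9-fold lower (log2 -3.45, -3.65 to -3.26). Itga3, the Itgb1 partner in basal epithelial cells and podocytes, had 698 and 85 counts and was 6.32-fold lower (log2 -2.66, -3.00 to -2.33), a call that was lost in the exact test of edgeR with assumed biological variation, as given below for Itgb5. Itga7, the laminin receptor of muscle, had 1277 and 376 counts and was 2.62-fold lower (log2 -1.39, -1.56 to -1.22). Itga6 was the exception, with 2701 and 3116 counts and a log2 ratio of 0.58 (0.51 to 0.66). As a result, the level of Itgb4 relative to Itga6 per kilobase was 1.55 in the intracranial and 0.0945 in the extracranial tumor, and Itga6 relative to Itga3 was 2.45 and 23.2. With the longest transcript as length, these ratios were 0.836 and 0.0510, and 4.36 and 41.3, so whether Itgb4 exceeded Itga6 in the intracranial tumor depends on the length. Itga6 alone made up most of the laminin-binding subunits of the extracranial tumor, with 12.9 of 16.4 CPM/kb, against 8.61 of 30.0 CPM/kb in the intracranial tumor.

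Genes of stratified epithelium moved with Itgb4 and Itga3. All 12 markers of that tissue were called lower in the extracranial library, with a median log2 ratio of -11.92 when counts of 3 or fewer were set to 3. They summed to 22463 CPM in the intracranial and 2.54 CPM in the extracranial library, and Krt5, Krt6a, Trp63 and Dsg3 were at 0 counts in the latter. Krt5, a keratin of basal epidermal cells, had 25883 and 0 counts. It was 6644-fold lower in the extracranial library with 0 set to 3, and at least 5403-fold lower by its interval. Its partner Krt14 had 74653 and 2 counts. Of 7 hemidesmosome genes, 3 were called lower at 4-fold and none higher (median log2 -1.99). All 3 (Krt5, Krt14 and Col17a1) are also among the 12 epithelial markers, and the other 4 genes of the list gave no call. Col17a1, the transmembrane collagen of hemidesmosomes, had 2155 and 21 counts (log2 -6.30). In the extracranial library, counts above the floor of 3 were found for Itgb4 (229), Itga3 (85), Lama3 (41) and Lamb3 (21), and also for the epithelial markers Cdh1 (26), Col17a1 (21), Krt4 (9) and Krt13 (5). The 8 skeletal muscle markers with enough counts, which moved with Itga7, all lay beyond 2-fold lower (median log2 -3.19, 58.9 and 11.5 CPM in sum). The part of epithelial or muscle cells in these member ratios was not tested.

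The RGD-binding receptors held the only member called higher, Itgb5, which pairs with Itgav to bind vitronectin. Itgb5 had 4398 counts in the intracranial and 15867 in the extracranial library, a 4.68-fold difference (log2 2.23, 2.18 to 2.28). This call was lost when biological variation was assumed in the exact test of edgeR (coefficient 0.4, Benjamini-Hochberg threshold 0.05), which left 0 members higher. Itgav, its α partner, had 11611 and 5433 counts and was 1.65-fold lower (log2 -0.72, -0.77 to -0.67), so the pair went in opposite directions. The level of Itgav relative to Itgb5 per kilobase was 0.873 in the intracranial and 0.113 in the extracranial tumor, and 1.23 and 0.159 with the longest transcript, so the subunit in excess in the intracranial tumor depends on the length. Itgb3, another Itgav partner that binds vitronectin, differed little, with 7569 and 6654 counts (log2 0.19, 0.14 to 0.24). Itgb5 stood at 0.965 times the level of Itgb3 in the intracranial and 3.96 times in the extracranial library, or 1.02 and 4.20 times with the longest transcript.

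Itgb6 and Itgb8, which form with Itgav the receptors that activate latent TGF-β, were both lower in the extracranial library. Itgb6, largely restricted to epithelia, had 81 counts in the intracranial library and 0 in the extracranial library. It was 20.8-fold lower when set against the floor of 3 counts. Its upper interval end was -4.05 on the log2 scale, which is 16.5-fold lower. Itgb8 had 467 and 155 counts (log2 -1.21, -1.49 to -0.95). Itga5, the fibronectin receptor, had 3415 and 2702 counts and a ratio that spanned 1 (log2 0.04, -0.03 to 0.11). Itga8, whose ligand nephronectin is described below, had 998 and 375 counts (log2 -1.04, -1.21 to -0.86).

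Itga2b forms with Itgb3 the fibrinogen receptor of platelets, and it had 1524 and 567 counts (log2 -1.05, -1.19 to -0.91). The level of Itgb3 relative to Itga2b was 4.59 in the intracranial and 10.8 in the extracranial library (2.95 and 6.97 with the longest transcript), so Itgb3 exceeded its platelet partner in both. The 8 platelet and megakaryocyte markers summed to 105 and 88.0 CPM, most of it from the platelet factor gene Pf4, with 3271 and 2275 counts (named after its value was seen). Of the 6 with enough counts 1 was called lower, the platelet chemokine gene Ppbp, with 250 and 24 counts. Platelet surface glycoproteins were near 0: Gp9 had 8 and 0 counts, Gp1ba 17 and 9, and Gp6 1 and 0 (named after their values were seen). Itga4 and Itga9, which bind VCAM1, fibronectin and other matrix ligands, had 351 and 690 counts (log2 1.35, 1.16 to 1.54) and 1093 and 906 counts (log2 0.11, -0.02 to 0.23), respectively. Itga4 is carried by leukocytes as well as by mesenchymal cells, and it was the member of this pair that lay beyond 2-fold.

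Summed per kilobase, the 17 α subunits were level between the libraries, at 142 and 143 CPM/kb, and the 8 β subunits reached 305 and 442 CPM/kb. Itgb5 made up 11.7% of the β subunits in the intracranial and 37.7% in the extracranial library, and Itgb1 60.5% and 42.6%, although the level of Itgb1 itself hardly differed. Itgb4 went from 4.37% to 0.276%. Among the α subunits, Itgav led the intracranial library with 21.9%, followed by Itga10 with 19.4%, and Itgam led the extracranial library with 26.9%, followed by Itga11 with 17.3%. Itga5 held 14.1% and 14.3%. This order depends on the exon length used, and so does the closeness of the α sums. With the longest transcript the α sums were 185 and 181 CPM/kb. With the whole gene count divided by the exon length free of other genes, intracranial levels were 53.2 CPM/kb for Itgam, 41.4 for Itga10 and 33.1 for Itgav. The extracranial level of Itgam was then 123 CPM/kb, which made the α sum higher in the extracranial than in the intracranial library. These are upper values, as reads in those exons alone were not counted.

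**Figure D3:**
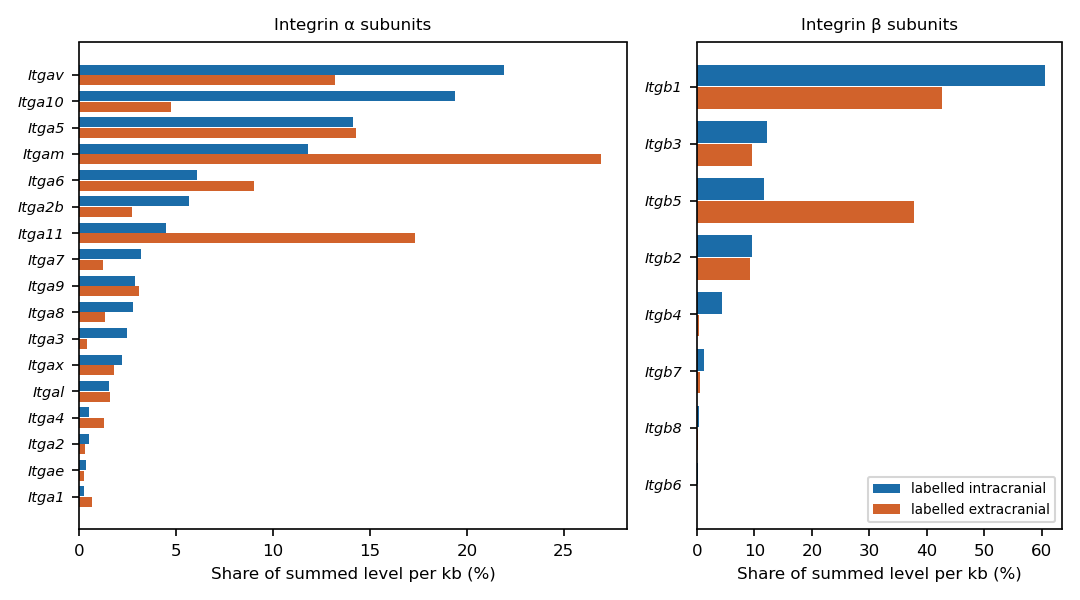
Share of each integrin subunit within the summed level (CPM per kilobase of exon, in percent) of the α subunits and of the β subunits, in the libraries labelled intracranial and extracranial (n = 1 each, no error bars). Itgb5 takes 11.7% and 37.7% of the β subunits, and Itga10 takes 19.4% and 4.74% of the α subunits.

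The 6 leukocyte integrins had no member beyond 4-fold. Itgb2, the β subunit common to the leukocyte receptors of the CD18 family, had 3104 and 3314 counts (log2 0.47, 0.40 to 0.54) and was the highest of the class per kilobase in both libraries, at 29.3 and 40.6 CPM/kb. Itgam, the CD11b subunit of macrophages and neutrophils, had 2909 and 5161 counts and was 2.30-fold higher in the extracranial library (log2 1.20, 1.14 to 1.27). Itgal, the CD11a subunit carried by lymphocytes and most other leukocytes, had 495 and 400 counts, and its interval spanned 0 (log2 0.07, -0.12 to 0.26). Itgax, the CD11c subunit of dendritic cells and some macrophages, had 516 and 330 counts (log2 -0.27, -0.47 to -0.07). Itgb7 and its partner Itgae, the receptor of intraepithelial lymphocytes for E-cadherin, had 349 and 180 counts (log2 -0.58, -0.85 to -0.31) and 79 and 42 counts (log2 -0.53, -1.11 to 0.02). Itgam was the only subunit of the class beyond 2-fold, and its level relative to Itgal per kilobase was 7.68 in the intracranial and 16.9 in the extracranial library. For Itgam, 68.7% of exon bases overlapped Gm49368 on the same strand, a gene that held 0 and 1 counts. With the whole gene count divided by exon length free of other genes, an upper value, Itgam stood above Itgb2 in both libraries. Which subunit led the class thus depends on the length.

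Most macrophage and dendritic cell markers, and some of lymphocytes, moved in the direction of Itgam and Itga4, whereas most neutrophil markers moved against it. Of 12 macrophage markers, 9 lay beyond 2-fold higher in the extracranial library and 1 beyond 2-fold lower, with a median log2 ratio of 1.53 and sums of 3199 and 9244 CPM. Aif1, a macrophage actin-binding protein, had 1740 and 7196 counts and was called higher, and the scavenger receptor gene Cd163, with 3507 and 480, was called lower. Of 8 neutrophil markers with enough counts, 7 were called lower (median log2 -5.37), and the list summed to 743 and 59.0 CPM. The remaining one, the G-CSF receptor gene Csf3r, went the other way, with 692 and 1542 counts (log2 1.53, 1.40 to 1.66), and gave 57.6 of the 59.0 CPM in the extracranial library (named after its value was seen). S100a8 and S100a9, which encode calprotectin, had 8970 and 9 counts and 14455 and 13 counts, although keratinocytes can also make them. T and NK cell markers (median log2 1.53, 18.0 and 44.8 CPM in sum) were led by the co-receptor genes Cd4, Cd8a and Cd8b1. Cd8a had 17 and 222 counts. The T cell receptor complex genes Cd3d, Cd3e and Cd3g, named after their values were seen, had log2 ratios of 0.32, 0.03 and 0.18, with intervals that spanned 0 as that of Itgal did, and Cd5 was at -0.77 (-1.37 to -0.19). The receptor constant gene Trac and the kinase gene Lck, also named after their values were seen, were higher. Trac had 30 and 116 counts (log2 2.33, 1.74 to 2.96), and Lck had 93 and 221 (log2 1.63, 1.27 to 1.99). Of the 10 T and NK cell markers compared, 6 had intervals above 0, 1 below 0 and 3 that spanned 0. Dendritic cell markers (median log2 1.73, 8.17 and 26.4 CPM) included Clec9a with 10 and 148 counts and Xcr1 with 16 and 112, while Itgax was slightly lower. B and plasma cell markers summed to 3.28 and 26.3 CPM, of which Cd79b, the one called higher, gave 1.64 and 22.7. The part of these cells in the leukocyte integrin ratios was not tested.

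Among the laminin chains, Lamb2 dominated in both tumors, and the chains that differed were the epithelial Lama3 and Lamb3. Lamb2, the β chain of vascular, synaptic and glomerular basement membranes, had 17474 and 10023 counts (log2 -0.43, -0.46 to -0.39) and made up 94.2% of the β chains in the intracranial and 95.1% in the extracranial library. Lamb1, the more widespread β chain, had 549 and 811 counts (log2 0.94, 0.78 to 1.10), and the level of Lamb2 relative to Lamb1 per kilobase was 51.9 and 20.2, or 32.7 and 12.7 with the longest transcript. Lamb3 had 809 and 21 counts and was 29.7-fold lower in the extracranial library (log2 -4.89, -5.59 to -4.27). This was the lowest ratio of the members, but its interval overlapped that of Lama3, and Itgb6, whose interval has no lower end, could lie lower. Lama3, with which Lamb3 forms the laminin of epithelial hemidesmosomes, had 776 and 41 counts and was 14.6-fold lower (log2 -3.87, -4.36 to -3.41).

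The other α chains differed less. Lama4, the chain of vessels and of mesenchyme, had 563 and 668 counts (log2 0.62, 0.46 to 0.79), and Lama5, the broadly made chain of mature basement membranes, had 556 and 202 (log2 -1.08, -1.32 to -0.85). Lama3 made up 41.1% of the α chains in the intracranial and 4.67% in the extracranial library, and Lama4 26.6% and 67.7%. Which chain led in the intracranial library depends on the length: with the longest transcript, Lama4 held 40.8% and Lama3 32.3%. Lama2, the chain of muscle and Schwann cells, had 105 and 60 counts (log2 -0.43, -0.91 to 0.04). Lama1, an early embryonic chain, was hardly detected, with 15 and 11 counts, and a difference could not be seen at that depth (log2 -0.07, -1.34 to 1.15). The low Lama1 and Lama2 levels left Lama3, Lama4 and Lama5 as the main α chains of the intracranial tumor, and Lama4 with Lama5 as those of the extracranial tumor.

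Of the γ chains measured here, Lamc1, the partner in most laminins, had 2099 and 1723 counts and a ratio near 1 (log2 0.09, -0.00 to 0.18), and made up 97.7% and 99.3% of their sum. Lamc3, with 36 and 9 counts, was rare (log2 -1.62, -2.86 to -0.54). The remaining γ chain was not analysed here, so the γ sum is over Lamc1 and Lamc3. Although a laminin trimer holds 1 chain of each kind, the β chains exceeded the γ chains measured per kilobase by 11.7 times in the intracranial and 8.26 times in the extracranial tumor, and exceeded the α chains by 17.4 and 21.2 times. With the longest transcript of each gene in place of the summed exons, β over α was 14.8 and 13.8, so the order of the libraries in that ratio depends on the length used. The excess lay with Lamb2 in both libraries, as Lamb2 alone stood at 11.1 and 7.86 times the γ sum. Chain amounts here are RNA levels, and protein was not measured.

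The 2 nidogens, which bind the laminin γ1 arm, were both higher in the extracranial library within 2-fold. Nid1 had 670 and 921 counts (log2 0.84, 0.69 to 0.98), and Nid2 had 301 and 358 (log2 0.63, 0.40 to 0.85). The plot of summed laminin chains shows the height of the β chains against the α and γ chains. It also shows the smaller share of Lama3 and the larger share of Lama4 within the α chains of the extracranial tumor.

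**Figure D4:**
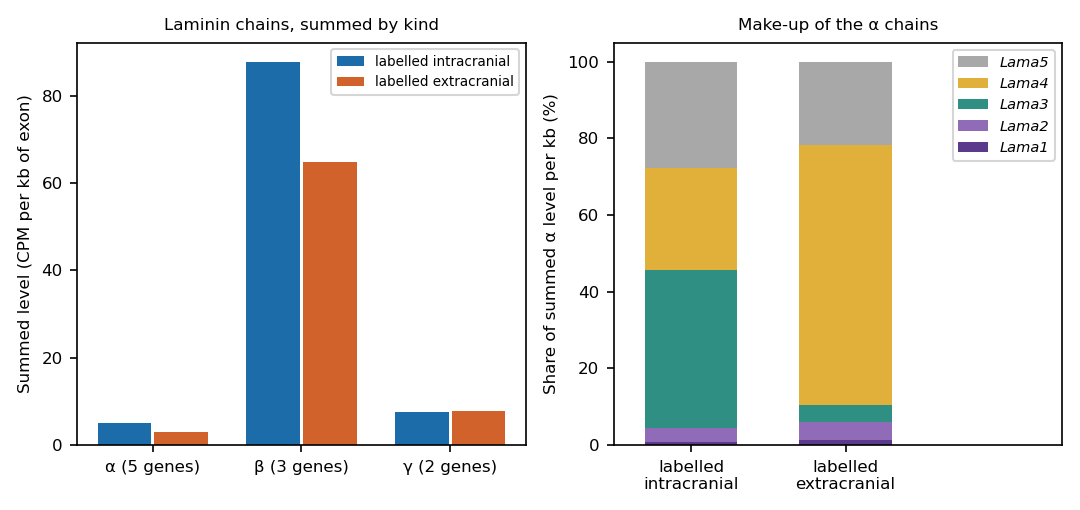
Left, the summed level of the α, β and γ laminin chains in CPM per kilobase of exon; right, the share of each α chain within the α sum in percent, both for the libraries labelled intracranial and extracranial (n = 1 each, no error bars). The β chains sum to 87.8 and 64.8, against 5.06 and 3.05 for the α and 7.47 and 7.84 for the γ chains, and Lama3 holds 41.1% and 4.67% of the α chains.

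The other components of basement membranes gave calls in both directions. Of 20 such genes, 1 was called higher and 2 lower at 4-fold (median log2 0.27), and 5 lay beyond 2-fold higher and 3 lower. Col4a4, a type IV collagen chain of specialised basement membranes, was the higher one, with 6 and 53 counts (log2 3.52, 2.30 to 5.03). The lower ones were Fbln1, a matrix glycoprotein, with 506 and 57 counts (log2 -2.77, -3.19 to -2.38), and Frem2, of the epidermal-dermal junction, with 63 and 0. Frem2 was 16.2-fold lower with 0 set to 3, and at least 12.8-fold lower by its interval. The ubiquitous type IV collagen chain Col4a1, named after its value was seen, was 3.19-fold higher in the extracranial library (log2 1.67, 1.62 to 1.73). The highest gene of the list per kilobase was Sparc, a collagen-binding matrix protein, at 625 and 449 CPM/kb. Endothelial markers moved with Col4a1, Lama4, Itga1 and the nidogens: all 10 had intervals above 0, their median log2 ratio was 1.05, and they summed to 241 and 422 CPM, none of them beyond 4-fold. Lamb2, described above as a chain of vascular basement membranes, and Lama5 went the other way, at log2 ratios of -0.43 and -1.08. The part of vessels in the ratios of these genes was not tested.

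Of the 18 integrin ligands with enough counts, 1 was called higher, 1 lower and the median log2 ratio was 0.37. Npnt, nephronectin, which binds the Itga8-Itgb1 receptor, had 98 and 600 counts and was 7.95-fold higher in the extracranial library (log2 2.99, 2.68 to 3.31), opposite to Itga8 at -1.04. Cdh1, E-cadherin and the ligand of Itgae-Itgb7, had 1906 and 26 counts (log2 -5.82, -6.44 to -5.26), while Itgb7 was at -0.58 and the interval of Itgae spanned 0. Vcam1, the ligand of Itga4-Itgb1, had 10741 and 3050 counts (log2 -1.44) and was opposite to Itga4, and Fn1, fibronectin, had a log2 ratio of -0.65, while its receptor Itga5 was near 0. Vtn, vitronectin, the ligand of Itgav-Itgb5, had only 10 and 40 counts (these last 3 ligands were named after their values were seen). Spp1, osteopontin, was the highest ligand per kilobase in both libraries, at 165 and 296 CPM/kb.

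The linkers that couple integrins to the cytoskeleton had a median log2 ratio of 0.14 over 22 genes. Of these, 1 was called lower at 4-fold, Fermt1, the kindlin of epithelia, with 181 and 0 counts. Fermt1 was 46.5-fold lower when set against the count floor, and at least 37.4-fold lower by its interval. At 2-fold, 4 linkers were higher and 4 lower. The higher ones included Fermt2, the kindlin of mesenchymal cells (log2 1.34), and Fermt3, the kindlin of blood cells (log2 1.14), both named after their values were seen. Fermt1 thus stood apart from the other kindlins, in the direction of Itgb4 and Itgb6. Zyx, zyxin of focal adhesions, was the highest linker per kilobase, at 26.7 and 41.7 CPM/kb. Among 14 laminin receptors other than integrins, such as the dystroglycan complex, none lay beyond 4-fold and 2 lay beyond 2-fold lower (median log2 -0.27). Of these, Bcam, a receptor for the Lama5 chain, had 635 and 123 counts (log2 -1.99, -2.28 to -1.71), in the same direction as Lama5 at -1.08, and was named after its value was seen. Rpsa was the highest of that list per kilobase (577 and 718 CPM/kb), but it encodes a ribosomal protein as well as the laminin receptor precursor.

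Markers of fibroblasts, Schwann cells, mural cells and sensory neurons gave no single direction. Of 8 fibroblast markers, 2 were called higher, Dcn with 3745 and 21130 counts and Lum with 853 and 15309, both small proteoglycans of fibrillar collagen matrix, in the same direction as Itga11 (median log2 of the list -0.31). Of 10 Schwann cell markers, 1 was called higher and 3 lower (median log2 -1.49), and the defining transcription factor gene Sox10 had 43 and 0 counts. The mural cell list, which includes the smooth muscle gene Cnn1 with 164 and 1 counts, summed to 437 and 518 CPM. Its median log2 ratio was nevertheless -0.89, and of its 8 genes 3 lay beyond 2-fold lower and 1 beyond 2-fold higher. For the trigeminal site, the sensory neuron gene Scn10a, a sodium channel of nociceptors, had only 5 counts in the intracranial and 0 in the extracranial library (named after its value was seen). The neurofilament gene Nefl, with 396 and 1613 counts, was the only marker of that list called higher. Tubb3, a neuronal tubulin gene also named after its value was seen, went the other way, with 629 and 118 counts (log2 -2.04, -2.33 to -1.75). Of the 7 sensory neuron markers compared, 3 had intervals above 0, 1 below 0 and 3 that spanned 0. The part of these cells in the member ratios was not tested. The plot of list ratios sets the pathway and most marker lists beside the members.

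**Figure D5:**
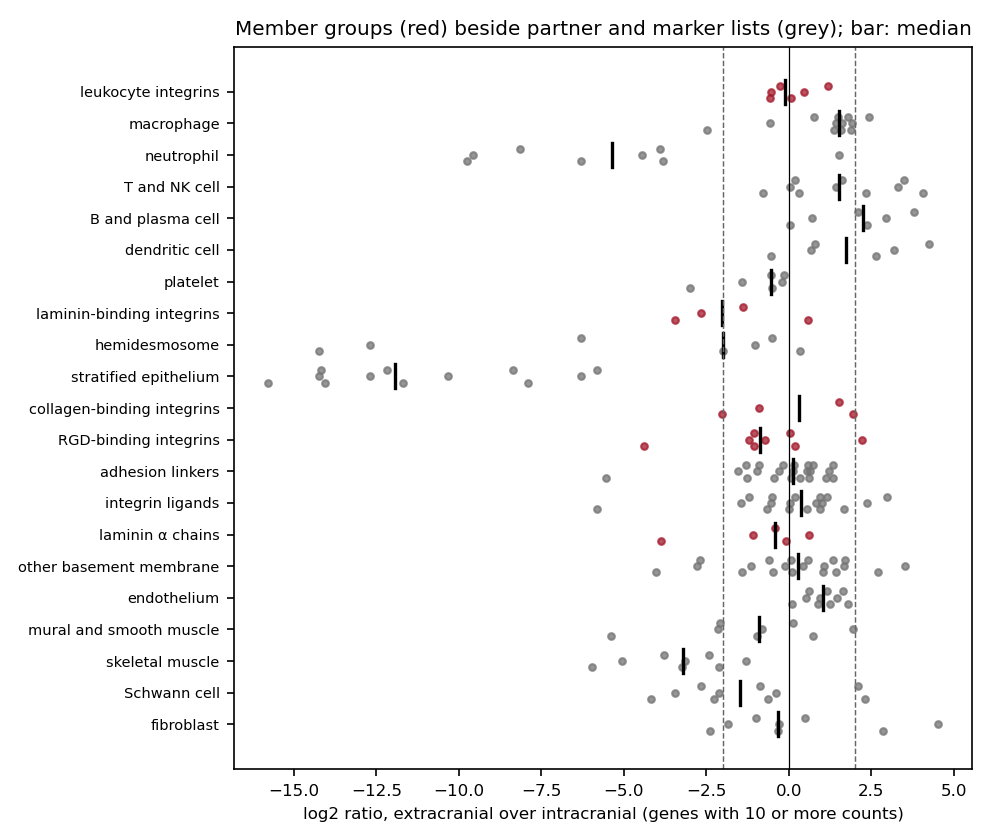
Log2 ratio of CPM, extracranial over intracranial, for each gene with 10 or more counts, 1 row per list, with the members in red, the pathway and marker lists in grey, the list median as a black bar and the 4-fold limits as dashed lines (n = 1 library per location; counts of 3 or fewer set to 3). Stratified epithelium lies farthest to the lower side with a median of -11.92, and the macrophage, T and NK cell, dendritic cell, and B and plasma cell lists have medians from 1.53 to 2.25.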

How the data were processed

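Bulk RNA-seq was carried out on poly(A) RNA of 2 tumors with directional libraries and single reads. The deposited values are raw read counts per gene, which the authors made by aligning with STAR 2.7.9a at default settings to the GRCm39 genome with Ensembl gene models and counting with featureCounts. Use of strand, and the treatment of reads in overlapping genes or with several alignments, were not given in the sources used here, so antisense and overlapping genes are uncertain.

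Samples were grouped by the location label, which gave 1 library per group. Symbols, exon lengths and exon overlaps between genes came from GENCODE release M21, which is older than the annotation counted on. The overlaps, and the exon lengths free of other genes, rest on its exon coordinates, which are of an older genome build than the counts. In all, 52083 IDs (94.0%) had a symbol, all 37 members among them. Promoters came from RefSeq (GRCm38.p6) and, with their coordinates, differ in build from the counts; protein sequences were not used here. Library sizes were scaled by TMM of edgeR 4.0.16 in R 4.3.3 (factors 1.006 and 0.994), and CPM were computed over them. With 1 library per group, the quasi-likelihood test could not be fitted and no p-value is given. For genes with 10 or more counts over both libraries, ratios were given the conditional exact binomial (Clopper-Pearson) 95% interval with scipy 1.17.1, counts of 3 or fewer being set to 3 for the ratio. The calculation was tested on simulated counts. Such intervals cover counting error only, because no molecular identifiers were used and reads are not separate molecules.

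The members, lists and motifs were chosen with earlier results of these data known. All members are named; from other lists, genes called at 4-fold may be named, with the highest gene per kilobase. Alternatives were other scalings (DESeq2 1.42.0 size factors among them), count minimums, call rules and lengths.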

Additional observations from a re-analysis of the deposited data

How the results depend on the processing

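No paired analysis was possible because a location had only 1 library, and for the same reason no replicate could be left out. Under DESeq2 size factors, total counts, upper quartile scaling and with 2 counts added to both libraries instead of the floor, all 148 recomputed member ratios kept their direction and their side of the threshold, and the scalings moved no member by more than 0.04 on the log2 scale. The median over all genes moved by -0.02 to 0.04. The 5 members called lower became 7 at a 2-fold limit and 4 in the exact test of edgeR with biological variation assumed (coefficient 0.4) at a Benjamini-Hochberg threshold of 0.05 (Itgb4, Itgb6, Lama3 and Lamb3). The single member called higher, Itgb5, became 5 members at 2-fold and 0 with the assumed variation. The 2 pathway list genes called higher became 1 with a minimum of 100 counts, 12 at 2-fold and 4 with the ratio alone, and the 7 called lower became 14 at 2-fold. The matrix receptor median of -0.72 moved to -0.34 over members with 100 or more counts.

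Shares within a chain class depended on the length used, and the alternatives with other lengths were chosen after seeing the data. With the longest transcript, the intracranial and extracranial shares were 92.2% and 92.5% for Lamb2, 32.3% and 2.79% for Lama3, 40.8% and 79.2% for Lama4, 15.3% and 3.85% for Itga10, 3.54% and 14.1% for Itga11, and 9.66% and 22.8% for Itgam. With exon length free of other genes, they were 21.3% and 4.39% for Itga10, 3.27% and 10.6% for Itga11, and 27.4% and 52.8% for Itgam. At the depth of these libraries, ratios of Lama1, Lama2, Lamc3 and Itgae rest on few counts.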

Other observations

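Ilk, a kinase-like adaptor that binds β tails, had only 46 and 29 counts in the libraries labelled intracranial and extracranial. Of its exon bases, 89.7% overlapped genes of the opposite strand, among them Taf10 with 2037 and 1599 counts. Ilk was named after its value was seen. Since the use of strand in counting was not stated, the level of Ilk is uncertain and was not set against that of other linkers.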
